A study of Mus musculus with 2 samples.

Results

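The cells described here were 341 cells of the bleomycin library that carried both Cthrc1, the gene of a secreted matrix protein used to mark fibrotic fibroblasts, and a high level of Acta2, the smooth muscle actin that marks myofibroblasts. They were chosen by counts alone. A cell needed at least 500 detected genes, at most 10% mitochondrial unique molecular identifiers (UMIs, each counting 1 captured RNA molecule), at least 3 Cthrc1 UMIs, at least 10 Acta2 UMIs per 10000 of its UMIs, and 0 UMIs of Mki67, Top2a, Myh11 and Pi16. The first pair of excluded genes marks dividing cells, Myh11 marks smooth muscle and Pi16 marks adventitial fibroblasts. The 341 cells were 3.41% of the 10001 bleomycin cells that passed the first 2 limits (95% exact binomial interval 3.06% to 3.78%), out of 18351 such cells in both libraries.

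Both libraries, 1 after bleomycin and 1 after saline, were made from lungs. All mice were 8 to 10 weeks old and carried Lepr-CreERT2;Rosa26-tdtomato. In these mice a tamoxifen-dependent Cre made from the leptin receptor gene switches on tdTomato, and the mark stays in the cell and its descendants after Lepr itself is no longer transcribed. Live tdTomato+ cells without CD45, EpCAM and CD31 were sorted, which removes most blood, epithelial and endothelial cells, and were profiled with a 10x Genomics 3′ kit. Bleomycin is an antitumour drug that injures the lung and is used in mice to model pulmonary fibrosis. Not given in the sources used here are the number of mice, the bleomycin dose, the day of harvest and the tamoxifen schedule. Each treatment had 1 library, so no difference was tested and no p-value is given. Intervals are 95% intervals of counting error only, and the cells of a group share 1 library.

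After lung injury some fibroblasts take up a myofibroblast state: they assemble contractile fibres from smooth muscle actin and its partner proteins and lay down collagen-rich matrix. Transforming growth factor beta and mechanical tension drive this state, and serum response factor (SRF), with its actin-sensing partners the myocardin-related factors, switches on many contractile genes through a short promoter motif called the CArG box. Smooth muscle cells of airways and vessels use the same contractile genes at higher levels and make less collagen.

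Acta2 (ENSMUSG00000035783) lies on the minus strand at chr19:34241090-34255590 of mm10, and Cthrc1 (ENSMUSG00000054196) on the plus strand at chr15:39076932-39087121. The 250 bases before the RefSeq start (the window) of 3 genes are shown. Acta2 chose the cells, and Cnn1 had the highest ratio of the contractile list. Among contractile genes with a window at hand, Myl9 had CArG-type boxes and a level furthest above that of Acta2-low cells. Sequences are from RefSeq on GRCm38.p6, written 5′ to 3′ along each gene's strand. Capitals mark CArG boxes, counting also those with 1 G or C in the A/T centre, on either strand.
Acta2, chr19:34255374-34255623, minus strand: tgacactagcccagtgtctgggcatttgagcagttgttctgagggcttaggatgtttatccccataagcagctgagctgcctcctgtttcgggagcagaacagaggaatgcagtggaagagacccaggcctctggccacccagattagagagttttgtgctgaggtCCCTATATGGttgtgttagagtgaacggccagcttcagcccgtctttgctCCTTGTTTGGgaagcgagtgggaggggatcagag
Myl9, chr2:156775214-156775463, plus strand: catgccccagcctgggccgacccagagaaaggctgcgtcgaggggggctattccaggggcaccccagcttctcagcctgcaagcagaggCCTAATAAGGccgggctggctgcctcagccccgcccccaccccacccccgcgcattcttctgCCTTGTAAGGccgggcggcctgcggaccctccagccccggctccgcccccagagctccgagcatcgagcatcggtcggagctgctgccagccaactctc
Cnn1, chr9:22099003-22099252, plus strand: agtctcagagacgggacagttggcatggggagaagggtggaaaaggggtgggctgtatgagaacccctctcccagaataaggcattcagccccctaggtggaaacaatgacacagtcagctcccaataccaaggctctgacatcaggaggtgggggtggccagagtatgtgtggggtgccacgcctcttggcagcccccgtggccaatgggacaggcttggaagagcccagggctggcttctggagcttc
The Acta2 window held a box with 1 G or C in its centre at -84 and another at -34, counted from the RefSeq start. That start is the base next to the window's 3′ end; it lies inside the gene as GENCODE M21 gives it above, so most of the Acta2 window overlaps the GENCODE gene. The windows of Myl9 and Cnn1 overlap their GENCODE genes at the 3′ end. The Myl9 window held a full box at -161 and one with 1 G or C at -99, and these letters were not found in the Cnn1 window. Full boxes occurred in 1.47% of all 32851 windows of this length and the wider form in 8.59%, or in 1.62% and 9.78% of the 27025 genes with a window. Of 44 actin, contractile and actin-binding genes listed, 38 had a window. Tagln, Actg2 and Actb had none, so whether they hold a box was not looked at. Of these, 10 held a full box, 13 held the wider form, and 13 held CATTCC or its complement GGAATG, the core of the motif read by TEAD factors, which 12.6% of all windows and 14.4% of all genes with a window held. A match is a description of letters, and no binding was measured.

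The label of the cells was set against its other markers. Spp1, the gene of the secreted matrix protein osteopontin, had at least 1 UMI in 288 of the 341 cells. Postn, the gene of the matricellular protein periostin, was found in 285, and Grem1, which encodes a secreted antagonist of bone morphogenetic proteins (BMPs), in 136. After each cell was thinned to 5000 UMIs, which left out 8 cells, 71.5% of the Acta2-high cells held an Spp1 UMI (66.3% to 76.3%), 64.9% a Postn UMI (59.5% to 70.0%) and 24.0% a Grem1 UMI (19.5% to 29.0%). Epithelial cells of the library, which should lack these genes, gave 38.3% for Spp1, 1.87% for Postn and 0 of 107 cells for Grem1, so only the Spp1 share stood on a high background. The median UMIs before thinning were 17026 in Acta2-high cells and 8785.5 in epithelial cells. Grem1 was therefore found in a minority of the cells, and the label holds for them as a group more than cell by cell. Cthrc1 cells below the Acta2 limit, thinned alike, gave 75.5% for Spp1, 59.6% for Postn and 25.9% for Grem1. Smooth muscle cells, defined further on, gave 31.9%, 62.4% and 8.40%. These shares do not set the Acta2-high cells apart from other Cthrc1 cells, nor Postn from smooth muscle. Lepr had 1 or more UMIs in 6.16% of the Acta2-high cells before thinning and 1.80% after it, against 0.93% of epithelial cells. That share is read as near background. Over all saline cells the level of Lepr was 61.5 CPM (counts of a gene per 1e+06 UMIs of the group).

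The Acta2-high cells are a range cut from a per-cell value, not a cell type. Among 981 Cthrc1 cells after the exclusions, 34.8% were Acta2-high, 167 had no Acta2 UMI, and Acta2 in the Acta2-high cells ran from 10.1 to 155 per 10000 UMIs with a median of 23.8. There were 50 cells just below the limit, with Acta2 from 8 to below 10, and 39 cells in the next 2.5 units above it. Tagln, which encodes the actin-binding protein transgelin, was at 2812 CPM just below the limit and 3225 CPM just above it, and Col1a1 at 8419 and 8282 CPM. Spp1 differed more across the limit, at 15626 CPM just below it and 9888 CPM just above it. For Cthrc1, 30 of the cells had exactly 3 UMIs and 290 had 5 or more. A further 46 cells met every other condition with 2 Cthrc1 UMIs; their Col1a1 level was 4662 CPM, against 6587 CPM in the cells with exactly 3. Without the 4 exclusion genes, 657 cells would have qualified; 150 of those held a Mki67 UMI, 167 a Top2a UMI, 129 a Myh11 UMI and 49 a Pi16 UMI.

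**Figure D1:**
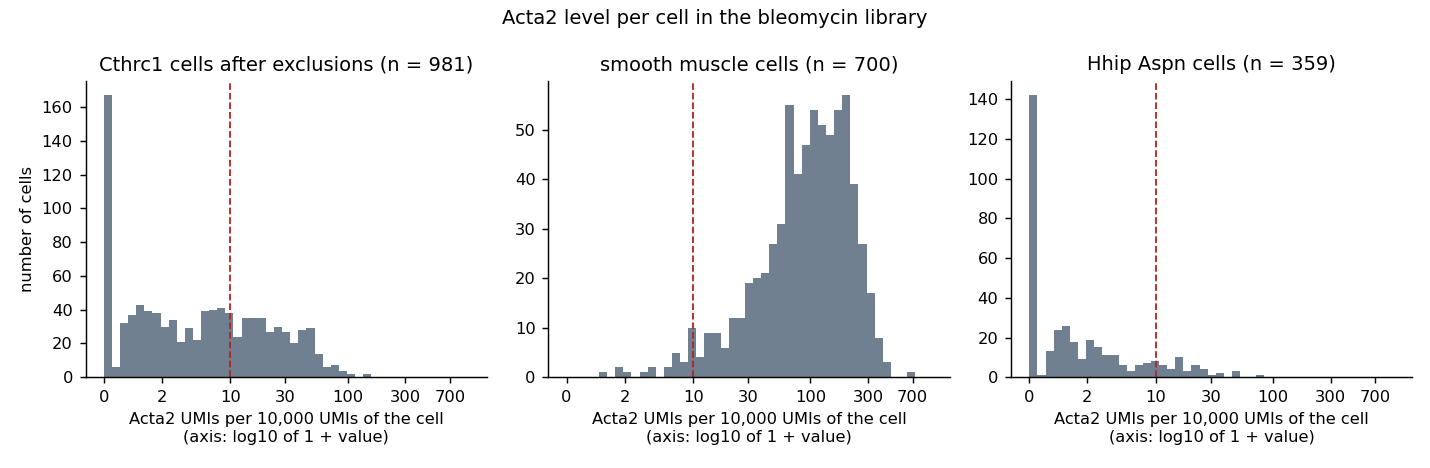
Histograms of Acta2 per cell (x axis, UMIs per 10000 UMIs of the cell, log10 of 1 + value) against the number of cells (y axis) in the bleomycin library, for 981 Cthrc1 cells, 700 smooth muscle cells and 359 cells with Hhip and Aspn. The dashed line is the limit of 10; it runs through a continuous spread of Cthrc1 cells, of which 341 lie at or above it.

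No cell of the saline library met the rule. Of 8350 saline cells, 28 had a Cthrc1 UMI, 2 had at least 3, and neither passed the exclusions. The count was therefore 0, which allows a share of up to 0.0442% by counting error alone. The saline cells were shallower, with a median of 6779.5 UMIs against 11744 in the bleomycin cells. A fixed limit of 3 UMIs is harder to reach at lower depth, and the interval leaves this out. Spp1 was at 2.89 CPM over all saline cells, against 9227 CPM in the Acta2-high cells. Cdkn2a, the gene of the cell-cycle inhibitor p16, reached 57.6 CPM in the Acta2-high cells, while all saline cells together gave 0.263 CPM. Both values set a chosen part of the bleomycin library against the whole saline library. Bleomycin cells with no Cthrc1 UMI had Spp1 at 4388 CPM and Cdkn2a at 2.14 CPM. With 1 library each, treatment, library and the cells captured cannot be told apart.

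The Acta2-high cells were sequenced slightly deeper than the other Cthrc1 cells, with median UMIs of 17026 against 15503, and the Cthrc1-zero cells had 10747. The median mitochondrial share was 1.85% in the Acta2-high cells. Epithelial, endothelial and immune markers were near 0 in the Acta2-high cells. The listed markers summed to 7.62, 7.31 and 20.6 CPM, against 71.2, 14.8 and 59.2 CPM in Acta2-low cells. Of the 71.2 CPM, the surfactant gene Sftpc made 58.5 CPM, with 73.5% of its UMIs in 1 cell. Markers of mesenchymal classes were not near 0. Those of smooth muscle summed to 879 CPM, against 251 CPM in Acta2-low cells. Alveolar fibroblast markers summed to 1250 against 1585 CPM, and inflammatory fibroblast markers to 1436 against 1849 CPM. The doublet caller marked 0 of 10001 cells and so did not work on this library; 13 of the 341 cells were among the 539 with the highest scores. The libraries shared 25 cell barcodes, 0 of them in Acta2-high cells.

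Against the 640 Acta2-low Cthrc1 cells of the same library (the same rule but Acta2 below 10 per 10000), the Acta2-high cells had more RNA of several contractile and actin genes, and no collagen met the size rule used here. Genes count as higher or lower here when the levels differed at least 2-fold, reached 10 CPM in the higher group, and had a ratio whose counting interval left out 1. Of 7521 genes measured, 40 were higher (0.532%) and 105 lower (1.40%), together 1.93%. Both groups come from 1 cut through the same cells, so these are descriptions of that cut, and the counts grew to 141 higher and 127 lower when the exclusion genes were not applied.

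Actg2 and Myl9 ranked first among the higher genes of at least 50 CPM, ordered by the interval bound nearest 1; some scarcer genes, named further on, had larger ratios. Tagln was at 5197 CPM against 1306 CPM (ratio 3.98, 3.90 to 4.06). Per cell, Tagln ran from 1.12 to 177 UMIs per 10000 with a median of 46.5 in Acta2-high cells, and from 0 to 80.6 with a median of 7.90 in Acta2-low cells, so the groups overlapped while 31 of 640 Acta2-low cells passed the Acta2-high median. Actg2, the smooth muscle gamma actin, was at 271 CPM against 37.9 CPM (ratio 7.13, 6.41 to 7.95). Myl9, a regulatory light chain of myosin, was at 269 against 58.3 CPM (ratio 4.62, 4.22 to 5.06). Cnn1, which encodes calponin, a thin-filament protein of smooth muscle, was at 37.2 against 2.34 CPM (ratio 15.9, 10.6 to 24.8) and was found in 102 of 341 against 24 of 640 cells. These 4 genes are markers of contracting cells, and Cnn1 was seen in a minority of the Acta2-high cells.

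Intermediate and cytoplasmic filament genes moved with them to a smaller degree. Tpm2, a tropomyosin that lies along actin filaments, was at 1140 against 371 CPM (ratio 3.07, 2.96 to 3.19). Des, which encodes the muscle intermediate filament desmin, was at 560 against 207 CPM (ratio 2.71, 2.57 to 2.85). Nes, which encodes the intermediate filament nestin, was at 66.6 against 30.3 CPM (ratio 2.20, 1.90 to 2.54). The cytoplasmic beta actin Actb was at 4939 against 2350 CPM (ratio 2.10, 2.07 to 2.14), and the cytoplasmic gamma actin Actg1 at 2906 against 1517 CPM (ratio 1.92, 1.88 to 1.96), just short of the 2-fold limit.

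Of the 34 measured genes of the contractile and actin-binding list, 5 were higher (Cnn1, Myl9, Tagln, Tpm2 and Des), 0 lower, and 32 had a ratio above 1. Their median log2 ratio was 0.59, against -0.02 over all measured genes, of which 0.532% were higher and 1.40% lower. Csrp2, a LIM-domain protein of smooth muscle, was at 949 against 475 CPM (ratio 2.00, under 2 before rounding). Flna, the actin cross-linker filamin A, had a ratio of 1.88 (1.78 to 1.99), and Vcl, the focal adhesion protein vinculin, 1.87 (1.74 to 2.01). Ppp1r14a, an inhibitor of myosin phosphatase that smooth muscle uses, was not higher: 46.3 against 51.1 CPM.

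Of 20 measured genes of the SRF, myocardin-related and YAP-TEAD list, which holds regulators and their targets, 1 was higher and 0 lower, where 1.93% of all measured genes met the rule in either direction, and the median log2 ratio was -0.04. The one was Ankrd1, a muscle ankyrin-repeat protein and a common readout of YAP, at 42.8 against 5.41 CPM (ratio 7.92, 5.97 to 10.6). It was found in 49 cells, and 1 of them held 35.9% of its UMIs. After thinning, 6.31% of Acta2-high and 2.69% of Acta2-low cells held it, against 14.0% of epithelial cells, so background cannot be set aside. Ccn2, which encodes connective tissue growth factor, was at 1288 against 711 CPM (ratio 1.81, 1.76 to 1.87). Srf itself was at 21.9 against 16.7 CPM (ratio 1.32, 1.05 to 1.64), and Myocd, the smooth muscle coactivator, at 5.33 and 4.24 CPM, under the 10 CPM floor.

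**Figure D2:**
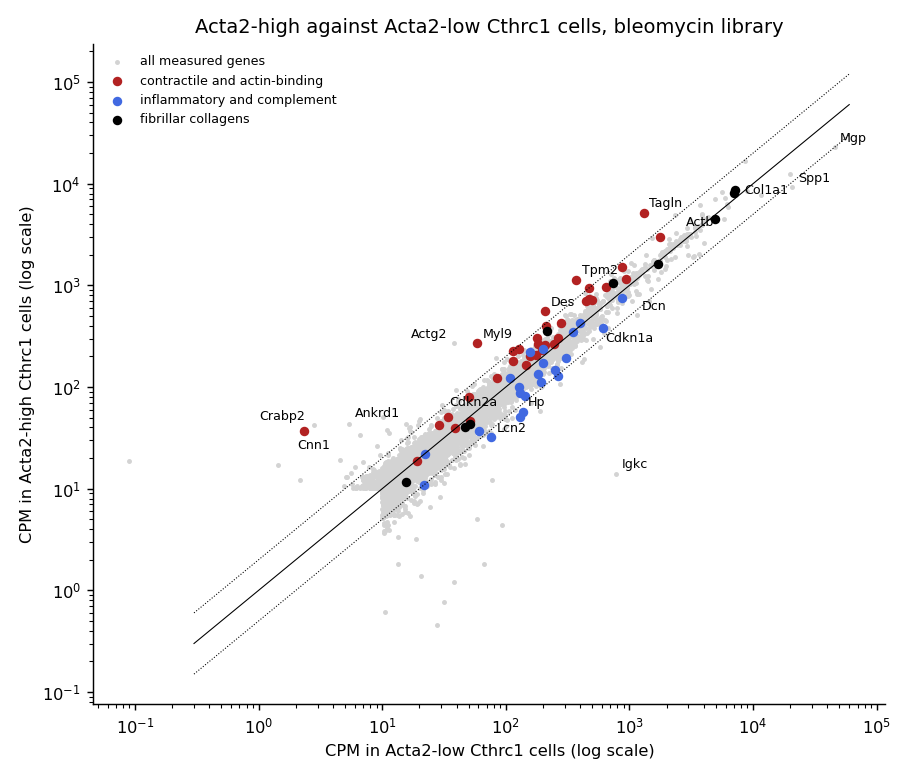
Each point is a measured gene, with its level in Acta2-low (x axis) and Acta2-high (y axis) Cthrc1 cells in CPM on log scales; the line is equality and the dotted lines are 2-fold. Of the 34 contractile genes (red) 32 lie above the line, led by Tagln at 5197 against 1306 CPM; fibrillar collagens (black) lie near the line, and Spp1 and Igkc below it.

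None of the 9 fibrillar collagens measured and none of the 14 other collagens met the size rule. Only 1.93% of all measured genes met it in either direction, so these counts alone say little about collagens. Col1a1, a chain of type I collagen, was at 8651 CPM in Acta2-high and 7172 CPM in Acta2-low cells (ratio 1.21, 1.19 to 1.22), Col1a2, its partner chain, at 8156 and 7047 CPM, and Col3a1, the chain of type III collagen, at 4456 and 4911 CPM. Of 24 measured genes that modify, cut or cross-link collagen, 0 met the rule and 20 had a ratio above 1, with a median log2 ratio of 0.25. Serpinh1, the collagen chaperone, was at 1588 against 1090 CPM, a ratio of 1.46. The list of folding and secretion genes of the endoplasmic reticulum gave a like count, 0 of 23 by the rule and 20 above 1, with a median of 0.23. Postn was at 534 and 472 CPM, Grem1 at 116 and 168 CPM, and Fn1, which encodes fibronectin, at 6286 and 6209 CPM.

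Of 30 measured matrix glycoproteins and proteoglycans, 1 was higher, 3 were lower and 26 met neither limit. Over all measured genes 0.532% were higher and 1.40% lower. Tnn, which encodes tenascin-W, was higher, with a ratio of 2.66 (1.98 to 3.58). Spp1 was 2.25-fold lower, at 9227 against 20794 CPM. Per cell, Spp1 spanned from 0 to 1421 per 10000 UMIs in Acta2-high cells (median 9.46) and from 0 to 2844 in Acta2-low cells (median 13.2), so the medians lay closer together than the summed levels. The cell with the most Spp1 held 5.67% of its UMIs in Acta2-high cells and 2.82% in Acta2-low cells. Dcn and Lum, which encode the small collagen-binding proteoglycans decorin and lumican, were 2.25-fold and 2.34-fold lower, at 507 against 1141 CPM and 177 against 415 CPM. Mgp, the gene of matrix Gla protein, an inhibitor of calcification, took 22871 CPM in Acta2-high and 45769 CPM in Acta2-low cells, and was lower by the rule (ratio 0.500, just past the limit). Mgp is not in that list and was chosen after its values were seen, since it was the most abundant gene to differ.

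Of 22 measured inflammatory and complement genes, 5 were lower and 0 higher, where 1.40% of all measured genes were lower and 0.532% higher. The list's median on the log2 scale was -0.61. Among the lower genes were C4b, a complement component (50.9 against 131 CPM), Hp, which encodes haptoglobin (57.4 against 137 CPM), Lcn2, which encodes the iron-binding lipocalin 2 (32.0 against 76.1 CPM), and the eosinophil attractant Ccl11 (10.8 against 21.9 CPM). Ccl11 was seen in 7 Acta2-high cells, and 1 of them held 78.9% of its UMIs. Of the 9 measured alveolar fibroblast markers, 9 had a ratio below 1, with a median log2 ratio of -0.38, and 1, Inmt, met the rule (19.8 against 41.1 CPM). After thinning, Inmt was found in 5.41% of Acta2-high and 8.53% of Acta2-low cells, both below the 9.35% of epithelial cells, so both are read as background and no difference is read from them. Saa3 was likewise found in 8.41% and 8.06%, against 12.1% of epithelial cells. By the same reading no difference is read for Hp (11.7% and 16.9%, against 30.8%) or Lcn2 (3.90% and 7.42%, against 37.4%).

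Of 12 measured senescence genes and p53 targets, 0 were higher and 3 lower, where 0.532% of all measured genes were higher and 1.40% lower. Cdkn1a, which encodes p21 and is a p53 target, was 2.32-fold lower (247 against 573 CPM), and the p53 targets Trp53inp1 (17.4 against 46.3 CPM) and Eda2r (6.70 CPM, 2.23-fold lower) were lower too. Cdkn2a, the gene of p16, was at 57.6 against 31.4 CPM (ratio 1.84, 1.58 to 2.13), and Cdkn2b, the gene of p15, at 37.0 against 27.2 CPM (ratio 1.36, 1.14 to 1.62); neither met the 2-fold limit. After thinning, 16.2% of Acta2-high cells (12.4% to 20.6%), 10.7% of Acta2-low cells (8.44% to 13.4%) and 6.54% of epithelial cells (2.67% to 13.0%) held a Cdkn2a UMI. The interval of the Acta2-high cells touched those of both other groups. Other cells of the library gave lower shares than epithelial cells: 0.778% of Cthrc1-zero cells and 0 of 631 smooth muscle cells.

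Some signalling genes met the rule. Over all measured genes of this comparison 0.532% were higher and 1.40% lower, which is the base for the counts of each list here. Of 18 measured ligands and antagonists of the TGF-beta, activin and BMP family, 1 was higher and 2 lower. The lower ones were Gdf15, a stress-induced ligand (39.0 against 95.9 CPM), and Inhbb, an activin subunit (5.48 against 12.4 CPM). Inhba, the other activin subunit, was at 510 against 356 CPM (ratio 1.43), and Tgfb1 at 178 against 221 CPM. Tgfbr3, the TGF-beta co-receptor betaglycan, was lower (11.3 against 22.8 CPM), the 1 gene of 28 measured receptors and response genes to meet the rule.

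Among 23 measured WNT, hedgehog and Notch genes, 0 were higher and 3 lower: the WNT-binding proteins Sfrp4 (3.20 against 18.9 CPM) and Sfrp2 (5.33 against 13.8 CPM) and the hedgehog-binding protein Hhip (5.64 against 14.3 CPM). After thinning, Hhip was found in 2.40% of Acta2-high and 3.95% of Acta2-low cells, against 4.67% of epithelial cells, and is read as near background. Igfbp5, which binds insulin-like growth factors, was the 1 lower gene of 24 measured growth factors and receptors (48.1 against 99.3 CPM). The proteases and inhibitors held 2 higher and 2 lower of 24. Adam12, a membrane metalloprotease (43.7 against 15.5 CPM, ratio 2.82), and Prss23, a secreted serine protease (194 against 83.9 CPM, ratio 2.31), were higher. Mmp11 (7.16 against 14.3 CPM) and the collagenase Mmp13 (4.42 against 10.4 CPM) were lower.

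None of 32 measured transcription factors and none of 16 measured genes of proline, glycine and glucose metabolism met the rule. As 1.93% of all measured genes met it in either direction, these counts alone say little. In the metabolic list 14 of 16 had a ratio above 1 and the median log2 ratio was 0.53. Gapdh, a glycolytic enzyme, was at 829 against 537 CPM (ratio 1.54, 1.49 to 1.60). Retinoid and lipid genes gave 3 higher and 2 lower of 14. Crabp2, a retinoic acid carrier, was at 42.0 against 2.79 CPM, but it was found in 20 cells and 1 cell held 27.2% of its UMIs. Aldh1a3, which makes retinoic acid, was at 50.9 against 10.1 CPM in 50 cells, with 24.6% of its UMIs in 1 cell, and the fatty-acid carrier Fabp5 at 35.3 against 11.4 CPM in 94 cells. Lpl, lipoprotein lipase (187 against 431 CPM), and Apoe, apolipoprotein E (695 against 1440 CPM), were lower.

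Over all genes, the lower list was led by genes of plasma and epithelial cells. Igkc, the immunoglobulin kappa chain, was at 14.0 against 778 CPM, but 1 Acta2-low cell held 99.1% of its UMIs in that group. For the plasma cell genes Jchain and Igha 1 cell held 97.4% and 96.6%, and for the surfactant gene Sftpc 73.5%. The next genes came from many cells. Penk, which encodes proenkephalin, was 6.39-fold lower (12.2 against 77.9 CPM), the flavin monooxygenase gene Fmo2 3.25-fold lower (58.5 against 190 CPM) and Gas6, a ligand of the AXL receptor, 2.58-fold lower (106 against 273 CPM). Ncam1, a neural cell adhesion molecule also found on some myofibroblasts, was higher, at 93.5 against 39.3 CPM (ratio 2.38, 2.10 to 2.70).

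**Figure D3:**
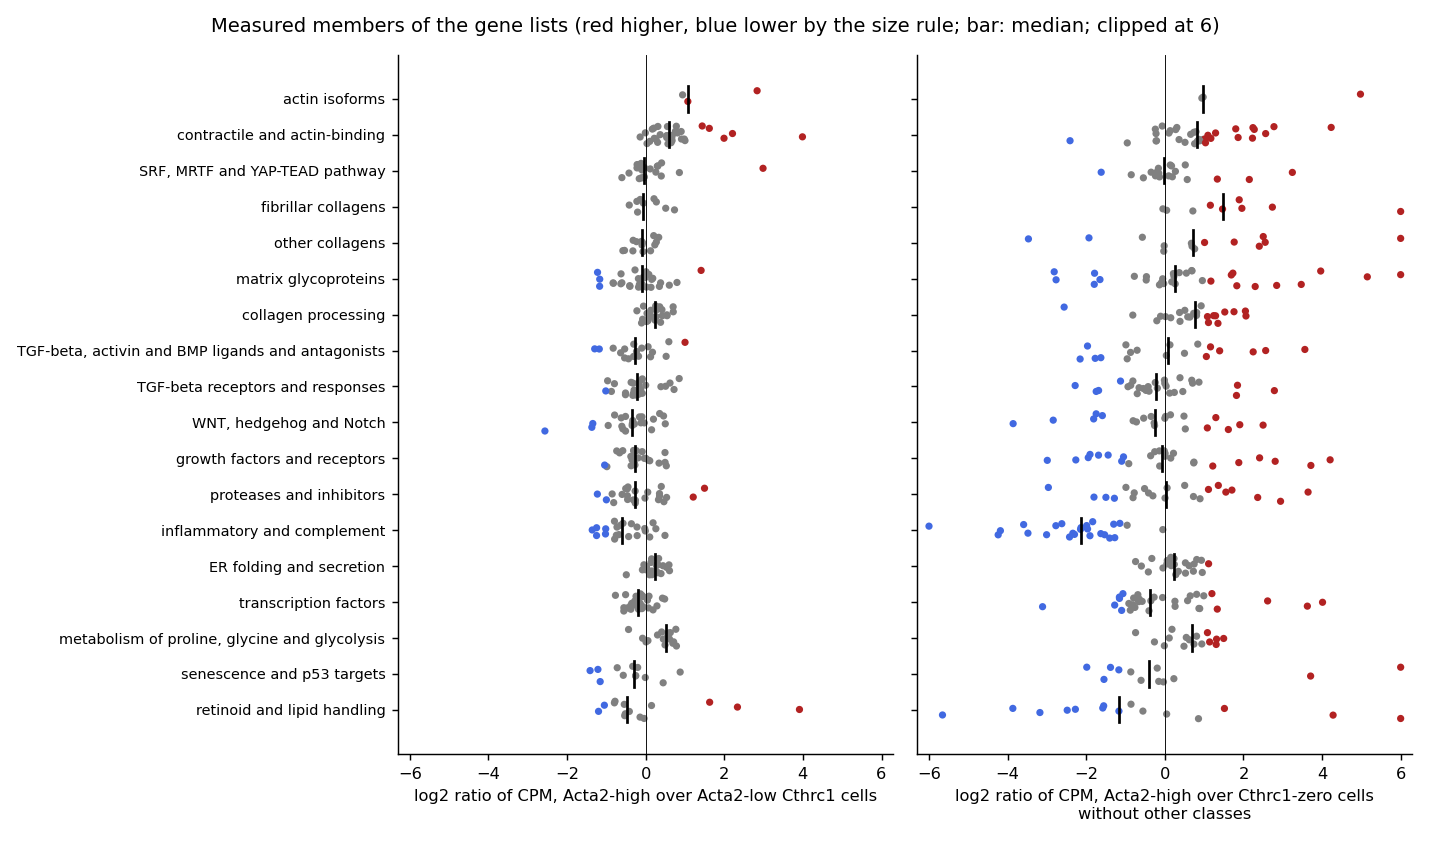
Log2 ratios of CPM (x axis) for the measured genes of 18 lists (y axis), Acta2-high over Acta2-low Cthrc1 cells on the left and over Cthrc1-zero cells without other classes on the right; points are genes, red and blue those higher and lower by the size rule, bars the medians. On the left the contractile list has its median at 0.59 and fibrillar collagens theirs at -0.06; on the right these are 0.81 and 1.47.

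Ranges of Acta2 across all 981 Cthrc1 cells showed the same order without a cut. Cells were put in 8 ranges from 0 (167 cells) to 80 or more per 10000 (9 cells), and the following levels describe them. Tagln was at 383 CPM with no Acta2 UMI, 1706 CPM at 2.5 to 5, 3877 CPM at 10 to 20 and 9150 CPM at 80 or more. Myl9 went from 29.3 to 749 CPM and Tpm2 from 231 to 2118 CPM over the same span. Cnn1 stayed at 4.17 CPM or less up to an Acta2 of 10 and was at 15.7, 23.7, 80.6 and 146 CPM in the 4 ranges above it. Tagln, Tpm2 and Myl9 were higher in each range than in the one below it.

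Collagen and other secreted genes had another shape. Col1a1 was at 6112 CPM with no Acta2, 9155 CPM at 20 to 40 and 7011 CPM at 80 or more. The top range held 9 cells. Cthrc1, which chose the cells, was at 886, 1520 and 921 CPM in those ranges. Mgp went from 54988 to 15421 CPM, Dcn from 1672 to 46.8 CPM, Lum from 504 to 5.20 CPM and Cdkn1a from 804 to 146 CPM. Spp1 was at 26285 CPM with no Acta2 and 2363 CPM at 80 or more, and it did not go down in every step, with 8929 CPM at 2.5 to 5 and 15529 CPM at 5 to 10. The 167 cells without an Acta2 UMI had a lower depth, with a median of 12468 UMIs against 15464 to 22816 in the 4 upper ranges.

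Within the 333 Acta2-high cells with at least 5000 UMIs, ranks of Acta2 and of other genes, all thinned to the same depth, gave a Spearman coefficient of 0.45 for Tagln, 0.41 for Tpm2, 0.37 for Myl9 and 0.34 for Actb. The coefficient was -0.33 for Mgp, -0.17 for Dcn, -0.03 for Col1a1 and -0.03 for Cthrc1. Across all 966 Cthrc1 cells of that depth it was 0.74 for Tagln, 0.62 for Tpm2, -0.46 for Mgp and 0.21 for Col1a1. The cells share 1 library, so these are descriptions.

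**Figure D4:**
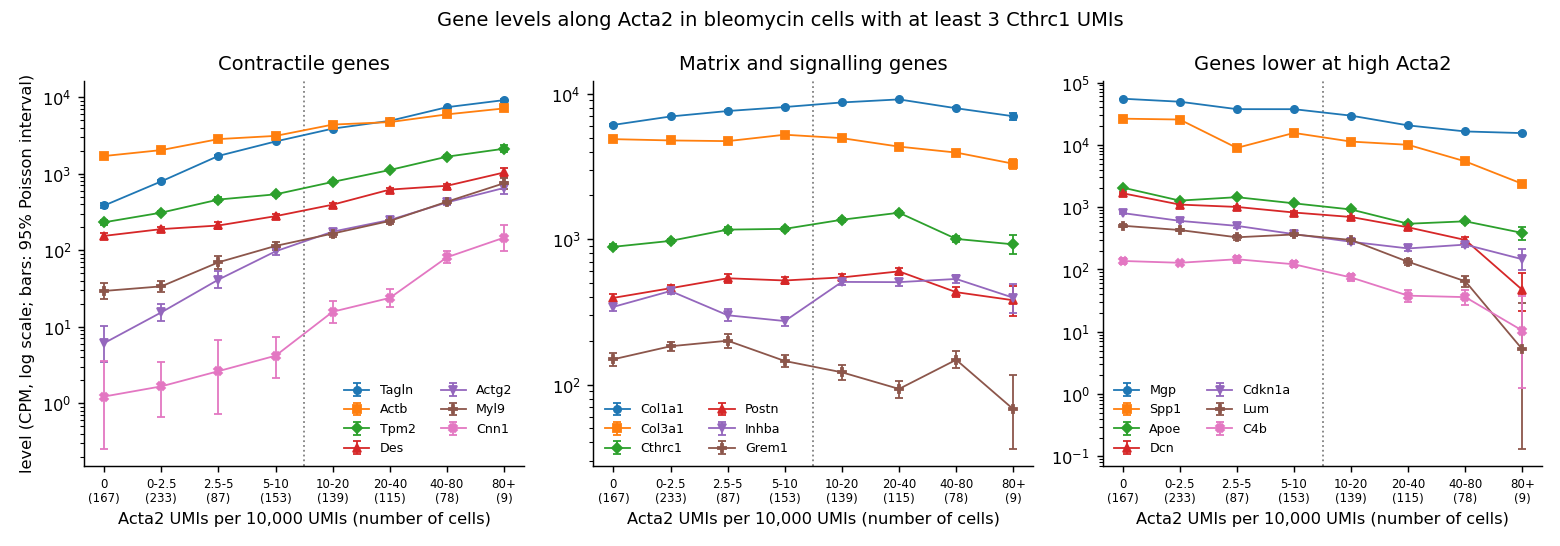
Levels (y axis, CPM on a log scale, bars 95% Poisson intervals) in 8 ranges of Acta2 (x axis, UMIs per 10000 UMIs, cell numbers in parentheses) for contractile genes, matrix and signalling genes, and genes chosen for being lower at high Acta2; the dotted line marks the limit of 10. Tagln climbs from 383 to 9150 CPM, Col1a1 peaks at 9155 CPM in the range 20 to 40, and Dcn goes down from 1672 to 46.8 CPM.

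Against the 7549 bleomycin cells with no Cthrc1 UMI, 296 of 7834 measured genes were higher (3.78%) and 692 lower (8.83%). Thbs4, a thrombospondin of tendon and injured tissue, was at 371 against 9.13 CPM, and Col8a1, a short-chain collagen, at 213 against 7.54 CPM. C1qtnf3, a secreted C1q-family protein, was at 55.9 against 4.30 CPM. These genes did not set Acta2-high apart from Acta2-low Cthrc1 cells, in which Thbs4 was at 375, Col8a1 at 195 and C1qtnf3 at 60.6 CPM. Spp1 was at 9227 against 4388 CPM, Postn at 534 against 84.3 CPM and Grem1 at 116 against 11.1 CPM. The Cthrc1-zero cells are a mixture that holds smooth muscle, epithelial and other cells, and Cnn1 (106 CPM) and Lmod1 (19.4 CPM) were higher in them than in the Acta2-high cells. The lower genes of at least 50 CPM that stood furthest apart were mostly genes of such cells: the immunoglobulin genes Iglc1 and Igkc, the surfactant genes Sftpc and Sftpa1, the mesothelial gene Msln and Actc1. The others were Cxcl13 (2.28 against 145 CPM) and C7, a complement component (3.81 against 133 CPM).

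A narrower comparison used the 4404 Cthrc1-zero cells with 0 UMIs of the 4 exclusion genes and fewer than 3 UMIs of each of the epithelial, endothelial, immune and mesothelial marker lists. There 368 of 7694 genes were higher (4.78%) and 621 lower (8.07%), and Cnn1 turned to 37.2 against 1.98 CPM. Spp1 no longer met the rule, at 9227 against 5714 CPM (ratio 1.61, 1.60 to 1.63). Of 34 measured contractile genes, 13 were higher and 1, Ppp1r14a, lower (46.3 against 246 CPM). Of 9 fibrillar collagens 6 were higher and 0 lower: Col1a1 was at 8651 against 2330 CPM (ratio 3.71), Col5a3 at 357 against 53.5 CPM (ratio 6.66) and Col11a1, a cartilage and scar collagen, at 40.4 against 0.407 CPM in 54 of the 341 cells. Col3a1, in contrast, was at 4456 against 4315 CPM (ratio 1.03).

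Of 24 measured collagen-processing genes, 9 were higher, among them the cross-linking enzymes Loxl3 (60.8 against 14.7 CPM) and Loxl2 (227 against 67.0 CPM) and the procollagen proteases Adamts14 (15.1 against 3.61 CPM) and Bmp1 (199 against 69.1 CPM). Pcolce2, an enhancer of procollagen cleavage, was lower (58.8 against 347 CPM). Of 31 matrix glycoproteins, 10 were higher and 5 lower. Postn was at 534 against 34.2 CPM (ratio 15.6), Thbs2 at 202 against 18.2 CPM (ratio 11.1) and Fbn2, a fibrillin of developing elastic fibres, at 42.5 against 5.91 CPM (ratio 7.19). Fbln1, which encodes fibulin 1, was lower (29.1 against 198 CPM).

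Ligands of the TGF-beta family went both ways in this comparison. Of 18 measured ligands and antagonists 6 were higher: Grem1 (116 against 9.81 CPM), Inhba (510 against 86.1 CPM), Tgfb2 (209 against 43.9 CPM), the activin-binding Fst (552 against 210 CPM), Tgfb1 (178 against 79.6 CPM) and Fstl1, a follistatin-like protein (1779 against 855 CPM). The 4 lower ones were Bmp3 (14.9 against 66.5 CPM), Bmp4 (18.6 against 57.4 CPM), Gdf10 (10.5 against 41.1 CPM) and Gdf15 (39.0 against 133 CPM). Of 21 WNT, hedgehog and Notch genes 5 were higher and 5 lower. Dkk2, a WNT modulator (33.7 against 5.95 CPM), and Kif26b, a kinesin-family protein downstream of WNT5A (92.8 against 30.3 CPM), were higher. Hhip (5.64 against 81.8 CPM), Ptch1, the hedgehog receptor (16.6 CPM, 3.01-fold lower), and Wnt2 (18.1 against 60.8 CPM) were lower. Of 26 growth factors and receptors, Igfbp2 (304 against 16.5 CPM), Pdgfc (30.3 against 2.31 CPM), the EGF-receptor ligand Hbegf (287 against 41.1 CPM) and Pdgfa (175 against 32.9 CPM) led the 6 higher ones, and the PDGF receptor gene Pdgfra (102 against 392 CPM) was among the 8 lower ones.

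Some transcription factors met the rule here, as did 12.9% of all measured genes. Between Acta2-high and Acta2-low cells no listed transcription factor and 1.93% of all measured genes did. With such unlike shares the counts of the comparisons are not set against each other, and whether they differ was not tested. Of 32 measured, 5 were higher: Scx, the tendon factor scleraxis (87.3 against 5.41 CPM), Meox1, a homeobox factor of activated fibroblasts (40.2 against 3.26 CPM), Twist1 (ratio 6.13), the bone factor Runx2 (22.4 against 8.88 CPM) and Id1, a BMP target (86.8 against 37.8 CPM). In Acta2-low cells Scx was at 65.0 and Meox1 at 37.9 CPM. Of the 6 lower ones, Tcf21, a factor of alveolar fibroblasts, was at 23.0 against 199 CPM and Id3 at 1099 against 2662 CPM. Jun (830 against 1849 CPM), Atf3 and Egr1, immediate early and stress response genes, were among them too. After thinning, 26.1% of the Acta2-high cells held a Scx UMI, against 1.83% of these Cthrc1-zero cells and 17.8% of epithelial cells, and 13.5% held a Meox1 UMI, against 1.21% and 0 of 107.

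Most inflammatory genes were lower: 23 of 25 measured met the rule and 0 were higher, and the list's median on the log2 scale was -2.13. Saa3, an acute-phase protein, was 18.9-fold lower (87.9 against 1661 CPM), Lcn2 18.2-fold lower, Hp 12.1-fold lower and the lymphocyte attractant Cxcl13 65.6-fold lower (2.28 against 150 CPM). All 11 measured alveolar fibroblast markers were lower by the rule, with Inmt at 19.8 against 671 CPM and Npnt, which encodes nephronectin, at 186 against 606 CPM. Of 15 retinoid and lipid genes 3 were higher and 8 lower, including the retinol-storing enzyme Lrat (1.07 against 53.8 CPM). Cdkn2a was at 57.6 against 0.795 CPM (ratio 72.4, 52.4 to 103) and Cdkn2b at 37.0 against 2.83 CPM, while Cdkn1a was 2.92-fold lower (247 against 721 CPM).

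Smooth muscle cells were compared because they share Acta2. They were taken as the 700 bleomycin cells with at least 3 Myh11 UMIs and none of Cthrc1, Mki67 and Top2a. Of 8095 genes measured, 624 were higher in the Acta2-high cells (7.71%) and 1022 lower (12.6%), together 20.3%, and the median log2 ratio of all measured genes was -0.13. Acta2 was at 3056 against 11605 CPM and Tagln at 5197 against 13099 CPM, both below the smooth muscle level. The gap was wider for Myl9 (269 against 2336 CPM, 8.67-fold lower) and Cnn1 (37.2 against 1300 CPM). Of 37 measured contractile genes, 13 were lower and 1, the non-muscle myosin heavy chain Myh9, was higher (430 against 193 CPM).

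The groups were cut on Myh11, with 0 UMIs in Acta2-high cells and at least 3 in smooth muscle cells. Of the 657 cells that qualified without the exclusion genes, 129 held a Myh11 UMI. Lower levels of other smooth muscle and contractile genes may be set in part by that choice. All 8 measured smooth muscle markers outside the rule were lower, to unequal degrees. Des (560 against 2190 CPM) and Actg2 (271 against 1582 CPM) kept the highest levels of the list in the Acta2-high cells. Synpo2, an actin-bundling protein, gave 0.457 CPM against 276 CPM, Actc1, the cardiac actin, 1.07 against 1552 CPM, and Lmod1, a nucleator of smooth muscle actin, 4.42 against 222 CPM. Myocd was at 5.33 against 81.2 CPM. The listed pericyte markers summed to 114 CPM against 797 CPM in smooth muscle, and most of that sum was Cspg4, the NG2 proteoglycan gene (75.1 CPM). By contrast, 8 of 9 fibrillar collagens were higher, with Col1a1 at 8651 against 1157 CPM. Spp1 was at 9227 against 368 CPM and Inhba at 510 against 61.6 CPM, while Postn was at 534 CPM in both.

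Cells with Hhip and Aspn, genes used to mark peribronchial and ductal myofibroblasts, were the last group compared. They were the 359 bleomycin cells with 1 or more UMIs of each and 0 of Cthrc1, Mki67, Top2a, Myh11 and Pi16. Hhip and Aspn cells with a Myh11 UMI were thus left out. In the smooth muscle group, chosen by Myh11, 36.6% of the cells held a Hhip UMI and 67.0% an Aspn UMI before thinning. The values of the 359 cells left by this choice do not bear out a myofibroblast name for them. Acta2 had a median of 0.843 per 10000 UMIs, against 0.891 in all Cthrc1-zero cells, and 142 of the 359 had no Acta2 UMI. Hhip and Aspn cells with Myh11 are not covered by these values. All 11 measured alveolar fibroblast markers were lower in the Acta2-high cells than in them, with sums of 1249.5 and 5459.6 CPM. Of 7767 genes measured, 445 were higher in the Acta2-high cells (5.73%) and 757 lower (9.75%). The contractile list had 13 higher and 2 lower of 34, with Tagln at 5197 against 848 CPM and Des at 560 against 102 CPM. The inflammatory list had 0 higher and 21 lower of 24. Cthrc1 was 0 in these cells by definition, and Col1a1 was at 2188 CPM and Col3a1 at 4802 CPM.

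**Figure D5:**
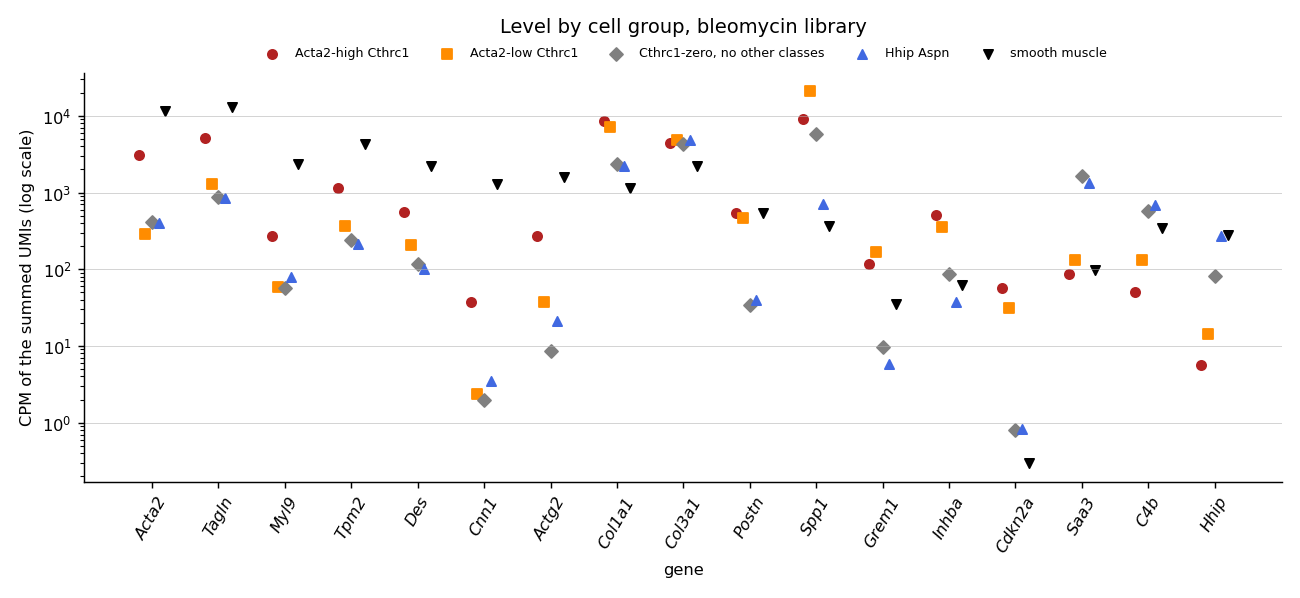
Levels (y axis, CPM of summed UMIs, log scale) of 17 genes (x axis) in 5 groups of bleomycin cells, 1 symbol a group. Acta2-high cells stand between the other Cthrc1 cells and smooth muscle for the 7 contractile genes, beside the Acta2-low cells for Col1a1 and Postn, and far below Cthrc1-zero cells for Saa3 and C4b.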

How the data were processed

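Single-cell RNA of sorted tdTomato+ lung mesenchymal cells was measured in 1 bleomycin and 1 saline library. The authors deposited matrices of UMI counts per gene and barcode, which per the submitters' processing notes were made with Cell Ranger 6.1.2 on mm10; the counts are raw and not normalized per the file headers and values. Here cells were filtered at 500 genes and 10% mitochondrial UMIs, and counts were summed over the cells of each group and divided by the group's UMIs to give CPM, with exact Poisson intervals and exact conditional intervals of ratios (scipy 1.17.1). With 1 library per treatment no test was run. Ratios between cell groups describe cells of 1 library. UMIs from free RNA stay in the counts, and 3′ counts are not divided by gene length, so levels are compared between groups and not between genes.

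Genes had to reach 10 CPM in 1 of the groups compared to be measured, and the 6 genes of the rule are left out of all counts of genes. For shares, each cell was thinned to 5000 UMIs and shallower cells were left out. Doublets were scored with Scrublet in scanpy 1.11.5 and stayed in. The comparison was also run on simulated counts. For Acta2-high against Acta2-low cells it called 50 of 50 genes altered 3-fold and 0 of 50 altered 1.5-fold. The second count follows from the 2-fold limit. The simulated counts held counting error only and no spread between cells, so genes carried by few cells are not covered. Gene coordinates come from GENCODE M21, where 32235 of 32285 gene IDs were found. Genes named in the text are the label markers; in each list up to 4 genes per direction with the largest ratios among those that met the size rule or, where none did, up to 3 of the most abundant; and, over all genes of at least 50 CPM, those whose interval bound stood furthest from 1 (up to 15 higher and 12 lower against Acta2-low cells, where 10 higher met the rule, and 12 and 8 against Cthrc1-zero cells). Symbols of predicted genes were left out, and some genes the rule allows are not reported here. Other genes named, such as Mgp, Csrp2 and Srf, were chosen after their values were seen. The members and the gene lists were chosen with earlier results of these data known.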

Additional observations from a re-analysis of the deposited data

How the results depend on the processing

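No paired analysis was possible because each treatment had 1 library and the labels give no replicate numbers; for the same reason no replicate could be left out. An Acta2 limit of 20 per 10000 left 202 cells, and dropping the exclusion genes gave 657. The number of genes apart from Acta2-low cells (145) went to 92 at an Acta2 limit of 5, 225 at 20, and 268 without the exclusion genes. With at least 50 CPM, the genes apart were 40 from Acta2-low, 425 from Cthrc1-zero, 678 from smooth muscle and 531 from Hhip Aspn cells. With no CPM limit they were 647, 2609, 2966 and 2089, and at 1.5-fold 665, 2008, 3153 and 2421; these follow from the limits themselves. Thinning to 2000 UMIs lowered the shares with a UMI to 63.5% for Spp1, 46.8% for Postn, 13.2% for Grem1 and 5.59% for Cdkn2a, which limits statements on weakly expressed genes. The ratio of the level at an Acta2 of 40 or more to that with no Acta2 was 19.8 for Tagln, 0.193 for Spp1 and 1.28 for Col1a1. It became 23.1, 0.198 and 1.39 with a Cthrc1 limit of 2 UMIs and 17.0, 0.305 and 1.11 with a limit of 5. For Spp1 it was 0.206 without the highest doublet scores, 0.179 without the exclusion genes and 0.170 in cells of 10000 to 30000 UMIs, and for Col1a1 1.24 and 1.43 in the last 2 settings. Against Acta2-low cells, ratios of genes carried by single cells reversed: Igkc to 1.36 (Cthrc1 limit of 5), 2.40 (10000 to 30000 UMIs) and 1.91 (without cells holding endothelial or immune UMIs), Igha to 1.70 and 1.51 and Jchain to 1.76 and 1.25 in the last 2 of these, and Sftpa1 to 1.21 in the last. Of the 183 genes followed against Cthrc1-zero cells, leaving out other classes reversed Cnn1 (18.8), Lmod1 (3.30), Notch3 (1.14) and Aldh1a2 (3.05). Dropping the exclusion genes reversed Aldh1a2 (1.05) among them. The ratios of 50 genes against Acta2-low cells were recomputed under each setting that can change a ratio: 402 values moved by less than their counting interval, 140 by more in the same direction and 8 reversed. For 183 genes against Cthrc1-zero cells these numbers were 1377, 631 and 5. Over all genes, those of the rule included, more were called in the opposite direction against Cthrc1-zero cells. There were 22 without the exclusion genes and 3 when other classes were left out. Centring used the median ratio of genes with at least 10 CPM in both groups, which was -0.09 on the log2 scale against smooth muscle and nearer 0 in the other 3 comparisons.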

Other observations

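Some other genes were higher in the Acta2-high than in the Acta2-low cells. Sfn, which encodes stratifin, was at 34.0 against 6.67 CPM and was found in 73 of the 341 cells. The gap junction gene Gjb5 was higher as well (40.4 against 16.9 CPM, in 118 cells). The epithelial genes Epcam and Cdh1 each had a UMI in 1 of the 341 cells. Lrrc15, a membrane protein of TGF-beta-treated fibroblasts, was at 22.5 against 11.1 CPM and 0.10 CPM in Cthrc1-zero cells without other classes. These genes were chosen after their values were seen.

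Interferon genes sat in a few cells. Rsad2 was at 16.9 against 1.44 CPM but came from 6 of the 341 cells, and Ifit3 at 26.5 against 9.10 CPM came from 17. Serpinb2, a plasminogen activator inhibitor, was at 18.9 against 0.09 CPM and came from 8 cells, 1 of which held 36.3% of its UMIs.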
